A study of Mus musculus with 4 samples.

Results

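Transporters of amino acids and small peptides were compared between jejunal crypt epithelium of Yy1 knockout mice and that of control mice. The members are the genes whose annotated symbol begins with Slc1a, Slc3a, Slc6a, Slc7a, Slc15a, Slc16a10, Slc36a, Slc38a or Slc43a. These names gave 69 of 18193 measured genes, of which 66 are members of the carrier families. The remaining 3, Slc7a6os, Slc36a1os and Slc6a19os, are opposite-strand genes that only share the prefix. Each gene was represented by its brightest probe set, a group of short oligonucleotides that report on the same transcript, out of 137 member probe sets in all. The members were taken by name, and the names were set with earlier results of these data known.

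The knockout group holds 2 arrays of crypts from mice labelled YY1f/f; Vil-Cre-ERT2, in which a tamoxifen-activated Cre under the Villin promoter of the intestinal epithelium deletes the floxed Yy1 gene. The control group holds 2 arrays of crypts from mice named as control only, whose genotype the sources used here do not give. Strain was given as C57BL/6J enriched for all 4 arrays, tamoxifen as 4 days, and the age and sex of the mice were not given. The treatment label leaves it unclear whether control mice carried Cre or received tamoxifen, so an effect of either and an effect of Yy1 loss cannot be told apart. The titles call the replicates biological and number them 1 and 2 in each group.

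Absorptive cells take up the products of protein digestion through carriers of their brush border, driven by sodium, protons or exchange, and release amino acids to the blood through exchangers and uniporters of the basolateral membrane. The heavy chains Slc3a1 and Slc3a2 carry the light chains of the Slc7 family to the cell surface. Dividing cells draw on other carriers, some of them induced through the transcription factor Atf4 when amino acids are short. Many Slc6 and Slc1 members are known from neurons and glia, where they clear transmitters, or from the kidney.

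YY1, the deleted factor, binds many promoters close to the start site. Only the 250 bases before the start were searched for the letters of its core motif, and bases after the start were not. The windows came from RefSeq (GRCm38.p6), which had a start for 51 of the 69 members. Of these 51, 16 were among the genes that fell and 6 among those that rose. The long core AANATGGCG, read on both strands, was in 0 of the 51 members and in 1.29% of all 27025 genes with a start. The shorter AANATGGC, which the long core contains, was in 3 members, Slc38a4, Slc6a21 and Slc7a6os, and in 4.49% of all genes. The letters TGATGCAA of the amino acid response element, which Atf4 binds with C/EBP partners, were in 2 members, Slc7a7 and Slc7a11, and in 0.918% of all genes. Slc7a7 was 1 of the 16 that fell, Slc7a11 was not called, and 0 of the 6 that rose had these letters. No match says only that the letters are not in this window. Printed below are the genes with the largest falls (Slc6a20a, Slc36a1) and the largest rise (Slc7a6, 1 of 2 start windows), the opposite-strand neighbour of Slc7a6 with the YY1 letters (Slc7a6os) and the pair with the amino acid response letters. Capitals mark these matches, and Slc6a20a, Slc36a1 and Slc7a6 have none.
Slc6a20a, chr9:123678833-123679082, minus strand: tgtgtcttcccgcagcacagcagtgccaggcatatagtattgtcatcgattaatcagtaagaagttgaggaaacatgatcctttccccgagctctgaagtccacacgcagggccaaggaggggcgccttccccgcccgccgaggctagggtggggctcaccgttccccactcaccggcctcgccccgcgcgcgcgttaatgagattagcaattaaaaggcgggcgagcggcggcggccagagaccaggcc
Slc36a1, chr11:55204090-55204339, plus strand: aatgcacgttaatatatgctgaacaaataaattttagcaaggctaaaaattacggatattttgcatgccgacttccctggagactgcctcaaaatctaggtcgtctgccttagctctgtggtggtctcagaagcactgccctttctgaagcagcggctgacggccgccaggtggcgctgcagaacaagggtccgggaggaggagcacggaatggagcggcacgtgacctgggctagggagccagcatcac
Slc7a6, chr8:106168604-106168853, plus strand: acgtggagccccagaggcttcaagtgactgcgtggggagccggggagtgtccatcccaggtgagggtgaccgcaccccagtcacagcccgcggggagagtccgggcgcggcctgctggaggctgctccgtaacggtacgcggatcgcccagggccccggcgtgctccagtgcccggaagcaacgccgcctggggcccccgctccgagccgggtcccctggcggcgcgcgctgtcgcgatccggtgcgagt
Slc7a6os, chr8:106210934-106211183, minus strand: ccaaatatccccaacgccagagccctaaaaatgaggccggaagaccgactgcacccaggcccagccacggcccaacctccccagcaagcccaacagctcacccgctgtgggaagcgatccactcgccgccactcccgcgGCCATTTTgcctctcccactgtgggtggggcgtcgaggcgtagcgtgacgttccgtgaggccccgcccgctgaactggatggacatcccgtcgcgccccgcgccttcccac
Slc7a7, chr14:54417703-54417952, minus strand: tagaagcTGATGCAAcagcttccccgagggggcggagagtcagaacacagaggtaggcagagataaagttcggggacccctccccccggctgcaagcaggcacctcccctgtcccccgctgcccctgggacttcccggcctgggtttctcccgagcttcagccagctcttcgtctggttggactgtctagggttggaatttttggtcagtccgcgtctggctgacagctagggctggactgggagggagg
Slc7a11, chr3:50443614-50443863, minus strand: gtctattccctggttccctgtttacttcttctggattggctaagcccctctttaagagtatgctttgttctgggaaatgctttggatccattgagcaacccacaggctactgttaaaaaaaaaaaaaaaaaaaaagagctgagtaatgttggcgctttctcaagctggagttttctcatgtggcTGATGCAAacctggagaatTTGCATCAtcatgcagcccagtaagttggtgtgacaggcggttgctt
In Slc7a6os the match, on the opposite strand, began 111 bases before the start. In Slc7a7 the match began 243 bases before the start and lies in 1 of 5 start windows of the gene. In Slc7a11 the first of 2 matches began 66 bases before the start.

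Values are intensities as deposited. Differences are knockout minus control on log2(intensity + 16), ± SE of the fit with n = 2 arrays per group, and genes with an adjusted p under 0.05 were called. Array medians were 139 to 143. Bacterial control probe sets had medians of 31.9 and 32.7 in the knockout arrays and of 35.6 and 33.1 in the control arrays, which marks the level of background. Yy1 itself was lower with all 4 of its probe sets, and the brightest had 69.4 and 68.1 in knockout arrays against 1648 and 1681 in control arrays. Between the 3' and 5' probe sets for Gapdh, a measure of RNA quality, the log2 difference was 1.71 and 1.65 in knockout arrays against 1.44 and 1.40 in control arrays. For Actb it was 0.33 and 0.29 in knockout arrays against 0.28 and 0.24 in control arrays, so the groups lay closer together. The part of RNA quality in the results below was not tested. In bulk samples like these, fewer cells of a type and less RNA per cell cannot be told apart.

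Of the 69 members, 18 fell and 7 rose in knockout crypts, and the groups did not overlap for any of these 25. Without regard to the call, the groups did not overlap for 43 members, which is 62.3% of them, and for 62.0% of all genes. Over all genes, 10.9% were called lower and 13.4% higher, 24.4% in either direction. Among the members 26.1% were lower and 10.1% higher, so the share that fell exceeded that over all genes and the share that rose was near it. The median log2 difference was -0.04 over the members and 0.01 over all genes. Of the 18 that fell, 12 belong to the brush border and basolateral lists, and of the 7 that rose, 4 belong to the carriers of many kinds of cells. The role lists were drawn up with earlier results of these data known, so this sorting is not independent of the values. A mean intensity over 64 was reached by 53 members, and 24 of the 25 called ones were among them. Of the 16 dimmer members only Slc15a5 was called. The 44 members not called lay between -0.33 (Slc6a18) and 0.32 (Slc6a7), and Slc6a21, Slc36a1os and Slc6a19os, which are in no role list, were among them.

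**Figure D1:**
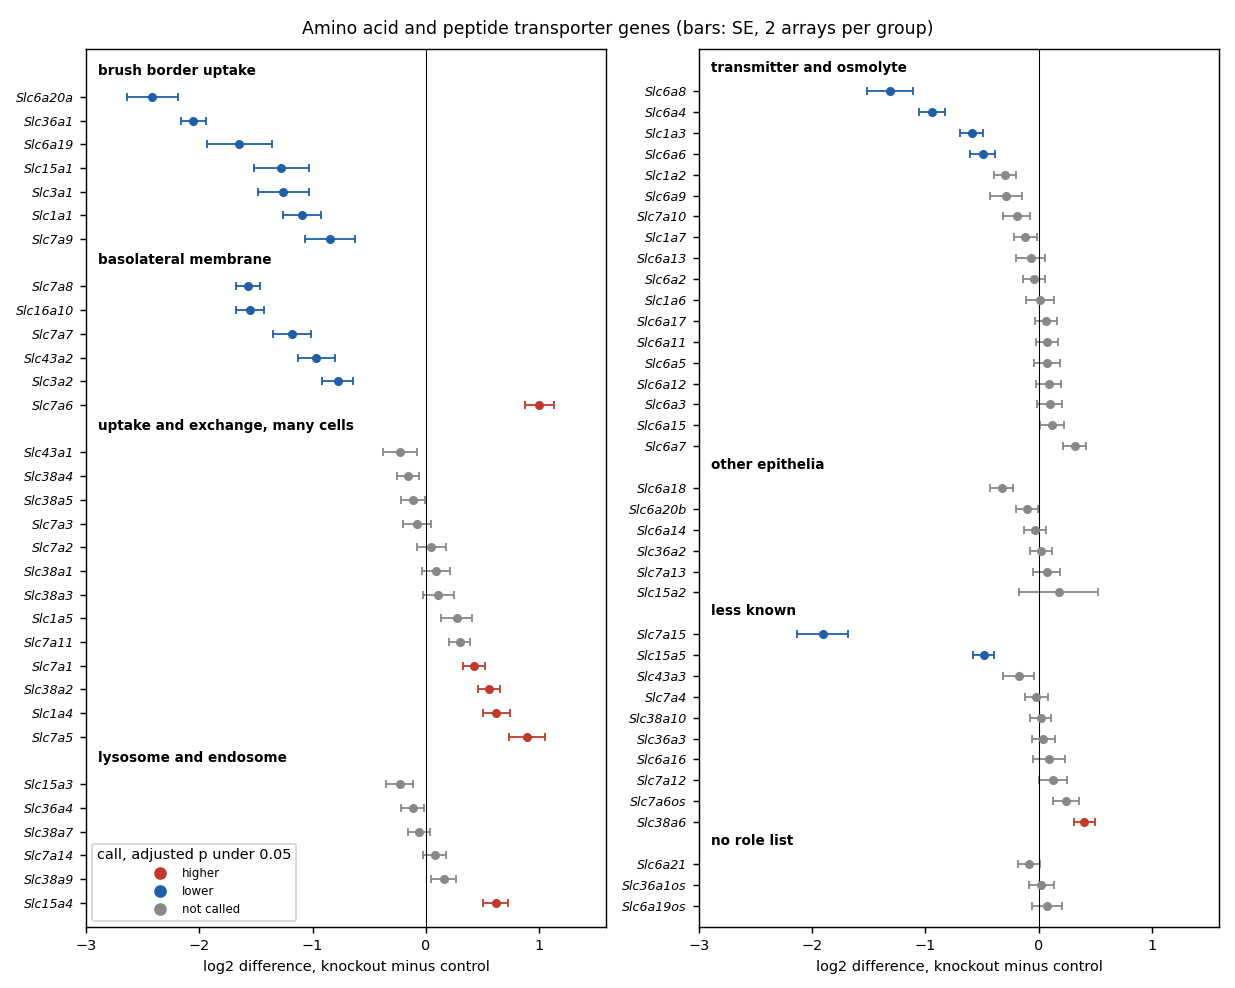
Log2 difference, knockout minus control on log2(intensity + 16), of each of the 69 members, grouped by role. Points are the fitted differences, bars their SE (2 arrays per group), and colours the call at an adjusted p under 0.05. All 7 brush border carriers lie between -2.42 and -0.85.

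All 7 carriers of the brush border list fell, against 10.9% of all genes, with a median log2 difference of -1.27. Slc6a20a, a sodium-coupled carrier of proline and other imino acids, had 226 and 397 in knockout arrays against 1691 and 1656 in control arrays. Both knockout arrays lay far under the controls (log2 difference -2.42 ± 0.23, adjusted p = 0.00102, 5.37-fold lower by the means). Slc36a1, a proton-coupled carrier of small neutral amino acids that is also found on lysosomes, had 146 and 146 in knockout arrays against 608 and 709 in control arrays. The knockout arrays were almost equal, and the fall of -2.05 ± 0.11 had an adjusted p of 0.000208, the smallest among the members. Slc6a19, the main sodium-coupled carrier of neutral amino acids in the small intestine, had 471 and 961 in knockout arrays against 2225 and 2064 in control arrays. Its knockout arrays differed clearly from each other (-1.65 ± 0.29, adjusted p = 0.00714), and its dimmer probe set fell by 2.25.

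Slc15a1, the proton-coupled carrier of di- and tripeptides, had 1450 and 2629 in knockout arrays against 4894 and 4607 in control arrays. The groups stood apart although the knockout arrays were spread (-1.27 ± 0.25, adjusted p = 0.0107). Slc3a1 and Slc7a9 are the heavy and light chain of the exchanger of cystine and cationic amino acids whose loss causes cystinuria. Slc3a1 had 749 and 1269 in knockout arrays against 2508 and 2210 in control arrays (-1.26 ± 0.23, adjusted p = 0.00808). Slc7a9 had 1250 and 2107 in knockout arrays against 2811 and 3063 in control arrays (-0.85 ± 0.22, adjusted p = 0.0318). Both chains were lower in each knockout array than in either control, as were all other members that fell. Slc1a1, the carrier of glutamate and aspartate, had 965 and 695 in knockout arrays against 1615 and 1930 in control arrays (-1.09 ± 0.17, adjusted p = 0.00489). Here knockout replicate 2 was the lower one, unlike in Slc6a19, Slc15a1, Slc3a1 and Slc7a9.

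The call of Slc7a9 was the least stable of these, with an adjusted p of 0.0505 without knockout replicate 1 (log2 difference -0.48), 0.0893 without control replicate 1 and 0.135 without control replicate 2. Slc15a1 had an adjusted p of 0.0524 without control replicate 1, and with a trended and robust prior Slc15a1, Slc6a19, Slc3a1 and Slc7a9 had 0.118, 0.0785, 0.0514 and 0.146.

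Of the 6 genes of the basolateral list, 5 fell (83.3%, against 10.9% of all genes) and 1 rose (16.7%, against 13.4%). Slc7a8, an exchanger of neutral amino acids, had 308 and 328 in knockout arrays against 1033 and 919 in control arrays (-1.57 ± 0.11, adjusted p = 0.000408). Slc16a10, a uniporter of aromatic amino acids, had 599 and 719 in knockout arrays against 2068 and 1844 in control arrays (-1.55 ± 0.12, adjusted p = 0.000704). For both genes the knockout arrays lay close together, at about the same distance from the controls. Slc7a7, the light chain that exchanges cationic for neutral amino acids and is mutated in lysinuric protein intolerance, had 850 and 1225 in knockout arrays against 2383 and 2284 in control arrays (-1.18 ± 0.17, adjusted p = 0.00366). Slc43a2, a uniporter of branched-chain and other neutral amino acids, had 4373 and 6210 in knockout arrays against 10419 and 9977 in control arrays (-0.97 ± 0.16, adjusted p = 0.00671). Its dimmer probe sets fell by 1.73 and 2.11, so the brightest gave the smallest of the 3 falls.

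The light chains of Slc3a2 did not all move with it, since Slc7a7 and Slc7a8 fell while Slc7a6 and Slc7a5 rose. Slc3a2, the heavy chain of Slc7a5, Slc7a6, Slc7a7, Slc7a8 and Slc7a11, had 972 and 1237 in knockout arrays against 1990 and 1797 in control arrays (-0.78 ± 0.14, adjusted p = 0.00743). Slc7a6, a close relative of Slc7a7 with the same kind of exchange and a wider range of tissues, had 404 and 322 in knockout arrays against 167 and 177 in control arrays. It rose by 1.01 ± 0.13 (adjusted p = 0.00250), the largest rise among the members, while the heavy chain and Slc7a7 fell. The second probe set of Slc7a6 rose by 1.52. Slc7a6os, its opposite-strand neighbour, had 1627 and 1431 in knockout arrays against 1378 and 1204 in control arrays and was not called (0.24 ± 0.12, adjusted p = 0.195). A much dimmer probe set of Slc7a6os, with 54.9 and 39.7 against 20.5 and 27.4, was called higher.

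**Figure D2:**
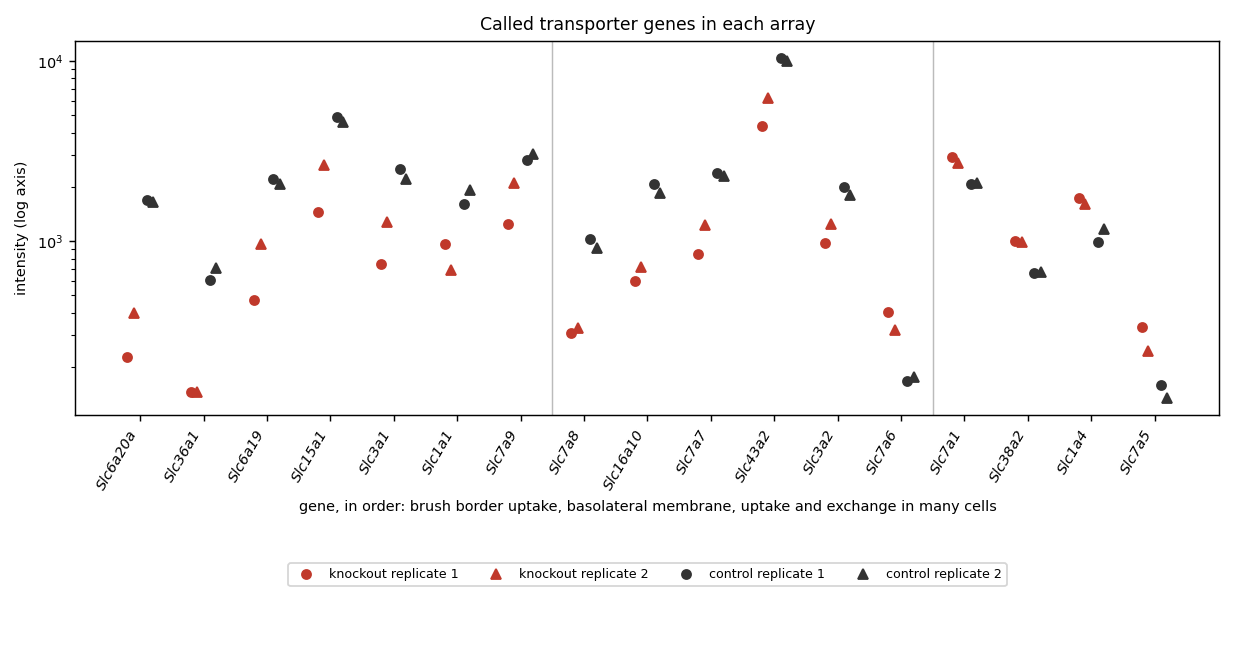
Intensity (log axis) of the called members of the brush border, basolateral and many-cell lists in each of the 4 arrays, knockout in red and control in black, circles for replicate 1 and triangles for replicate 2. Within each gene no knockout point lies among the control points, with Slc7a6, Slc7a1, Slc38a2, Slc1a4 and Slc7a5 above the controls and the other genes under them. The groups did not overlap for 62.0% of all genes either.

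Of 13 carriers that supply many kinds of cells, 4 rose (30.8%, against 13.4% of all genes) and 0 fell, with a median log2 difference of 0.11. At an unadjusted p under 0.05, limma likewise placed none of them lower. Slc7a5, the light chain that brings in leucine and other large neutral amino acids, had 336 and 244 in knockout arrays against 159 and 135 in control arrays (0.90 ± 0.16, adjusted p = 0.00785). Slc1a4, an exchanger of alanine, serine and cysteine, had 1736 and 1601 in knockout arrays against 987 and 1168 in control arrays (0.63 ± 0.12, adjusted p = 0.00934). Slc38a2, a sodium-coupled carrier of glutamine and alanine that responds to amino acid shortage, had 1002 and 986 in knockout arrays against 662 and 675 in control arrays (0.56 ± 0.09, adjusted p = 0.00624). Slc7a1, the main carrier of arginine and lysine in most cells, had 2926 and 2717 in knockout arrays against 2074 and 2111 in control arrays (0.43 ± 0.10, adjusted p = 0.0194). These rises were smaller than most of the falls above. In each gene both knockout arrays exceeded both controls, but the groups also did not overlap for 62.0% of all genes.

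Slc7a11, the cystine and glutamate exchanger with the paired response letters, had 62.3 and 59.9 in knockout arrays against 46.2 and 46.9 in control arrays (0.30 ± 0.09, adjusted p = 0.0584). Slc1a5, a glutamine carrier of dividing cells, had 401 and 334 in knockout arrays against 269 and 333 in control arrays (0.28 ± 0.14, adjusted p = 0.212). Slc38a1, related to Slc38a2, had 1023 and 828 in knockout arrays against 841 and 879 in control arrays, with overlapping groups (0.10 ± 0.12, adjusted p = 0.646). These 3 genes did not pass the test, which does not show that their levels were equal. Slc7a2, a carrier of cationic amino acids, had overlapping groups with its brightest probe set (0.05 ± 0.13), and a dimmer one, with 74.3 and 88.9 against 139 and 134, was called lower (-0.64 ± 0.11).

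Without control replicate 1 the calls of Slc1a4 (adjusted p = 0.0639) and Slc7a1 (0.106) were lost. Slc7a1 also had 0.0796 when knockout replicate 1 was left out and 0.0946 when control replicate 2 was, and Slc7a5 had 0.0512 without control replicate 2.

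Of 6 lysosomal and endosomal carriers, Slc15a4 rose (16.7%, near the 13.4% of all genes) and the other 5 were not called. Slc15a4, a proton-coupled carrier of histidine and peptides best known from immune cells, had 303 and 352 in knockout arrays against 209 and 205 in control arrays (0.62 ± 0.11, adjusted p = 0.00739). Its relative Slc15a3 had 57.5 and 55.6 in knockout arrays against 61.2 and 77.4 in control arrays (-0.23 ± 0.12, adjusted p = 0.230). Of 7 measured immune markers Ptprc, found on all white blood cells, fell (293 and 349 in knockout arrays against 410 and 458 in control arrays) and none rose, also at an unadjusted p under 0.05 by limma. The share lower was 14.3%, near the 10.9% of all genes. The T cell marker Cd3e had 128 and 189 in knockout arrays against 209 and 230 in control arrays (-0.46 ± 0.17, adjusted p = 0.0987). The summed intensities of the list, 8151 and 8984 in knockout arrays against 8635 and 8988 in control arrays, are mostly Lyz2, with 7285 and 7977 against 7550 and 7845, and say little of the other 6. Slc38a9, the lysosomal arginine sensor, had 342 and 384 in knockout arrays against 309 and 337 in control arrays (0.16 ± 0.11, adjusted p = 0.351).

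Among 18 carriers of transmitters, creatine, taurine and glycine, 4 fell (22.2%, against 10.9% of all genes) and 0 rose. By limma at an unadjusted p under 0.05 Slc6a7 was the one on the higher side. Slc6a8, the creatine carrier, had 1408 and 2273 in knockout arrays against 4548 and 4394 in control arrays (-1.31 ± 0.21, adjusted p = 0.00507). Slc6a4, the serotonin carrier, which in the gut epithelium clears serotonin released by enteroendocrine cells, had 1256 and 1511 in knockout arrays against 2705 and 2618 in control arrays (-0.94 ± 0.12, adjusted p = 0.00242). Slc6a6, the taurine carrier, had 2402 and 2541 in knockout arrays against 3754 and 3239 in control arrays (-0.49 ± 0.11, adjusted p = 0.0183). The knockout arrays lay under both controls in each of these 3 genes, as in all other members that fell. Slc1a3, a glutamate carrier known from glia, had 95.7 and 90.1 in knockout arrays against 142 and 155 in control arrays (-0.59 ± 0.10, adjusted p = 0.00658). Of 6 measured neuron and glia markers none was called in either direction, nor had one an unadjusted p under 0.05 by limma, with sums of 496 and 523 in knockout arrays against 529 and 498 in control arrays. Slc6a6 lost its call without knockout replicate 1 (adjusted p = 0.0778) and without control replicate 1 (0.121), and Slc1a3 without control replicate 2 (0.0532).

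The other transmitter carriers were not called. Slc6a7, a proline carrier known from brain, had 856 and 943 in knockout arrays against 737 and 695 in control arrays (0.32 ± 0.10, adjusted p = 0.0622). Slc6a9, a glycine carrier, had 242 and 304 in knockout arrays against 305 and 367 in control arrays (-0.29 ± 0.14, adjusted p = 0.206). Slc6a2, the noradrenaline carrier, had 200.1 and 213 in knockout arrays against 208 and 218 in control arrays (-0.04 ± 0.10, adjusted p = 0.809).

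None of the 6 carriers best known from kidney and other epithelia was called, and at an unadjusted p under 0.05 limma placed only Slc6a18 of these 6 lower. Slc6a18, a relative of Slc6a19 known from the kidney, had 173 and 162 in knockout arrays against 202 and 225 in control arrays (-0.33 ± 0.10, adjusted p = 0.0611). Slc6a20b, the close copy of Slc6a20a, had 181 and 180.2 in knockout arrays against 185 and 205 in control arrays (-0.10 ± 0.10, adjusted p = 0.540). Whether the probe sets of these close copies share signal was not tested.

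Of the 10 less known genes 2 fell and 1 rose. Slc7a15, described in the mouse as a carrier that prefers aromatic amino acids, had 169 and 275 in knockout arrays against 986 and 742 in control arrays (-1.91 ± 0.23, adjusted p = 0.00205). Slc15a5 had 20.7 and 20.6 in knockout arrays against 34.5 and 36 in control arrays (-0.48 ± 0.09, adjusted p = 0.0108). All 4 values of Slc15a5 lie near or under the medians of the bacterial controls, so its level and the size of its fall cannot be read, and the call was lost without control replicate 1 (0.0577) or 2 (0.0753). Slc38a6, a relative of the glutamine carriers, had 311 and 300 in knockout arrays against 230 and 224 in control arrays (0.40 ± 0.09, adjusted p = 0.0212). Its call was lost without knockout replicate 1 (0.0779), control replicate 1 (0.0935) or control replicate 2 (0.124). Slc38a10 had 2327 and 2234 in knockout arrays against 2287 and 2218 in control arrays (0.02 ± 0.10), and Slc7a4 had 297 and 336 against 325 and 317 (-0.02 ± 0.10). The groups overlapped in both genes.

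Several probe sets were present for 14 of the 25 called members. In 10 of these another probe set was called the same way, in 7 all of them were, and in 0 was one called the opposite way. The rises of Slc1a4, Slc38a2, Slc38a6 and Slc15a4 each rest on the brightest probe set, since the dimmer ones had positive differences between 0.16 and 0.35 that were not called. The plot of all probe sets shows this beside Slc7a1 and Slc7a6, whose dimmer probe sets were also called higher. For Slc16a10 the dimmest of 4 probe sets, at 109 and 101 against 123 and 110, was not called (-0.13 ± 0.11), and for Slc1a3 4 of 6 were not.

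**Figure D3:**
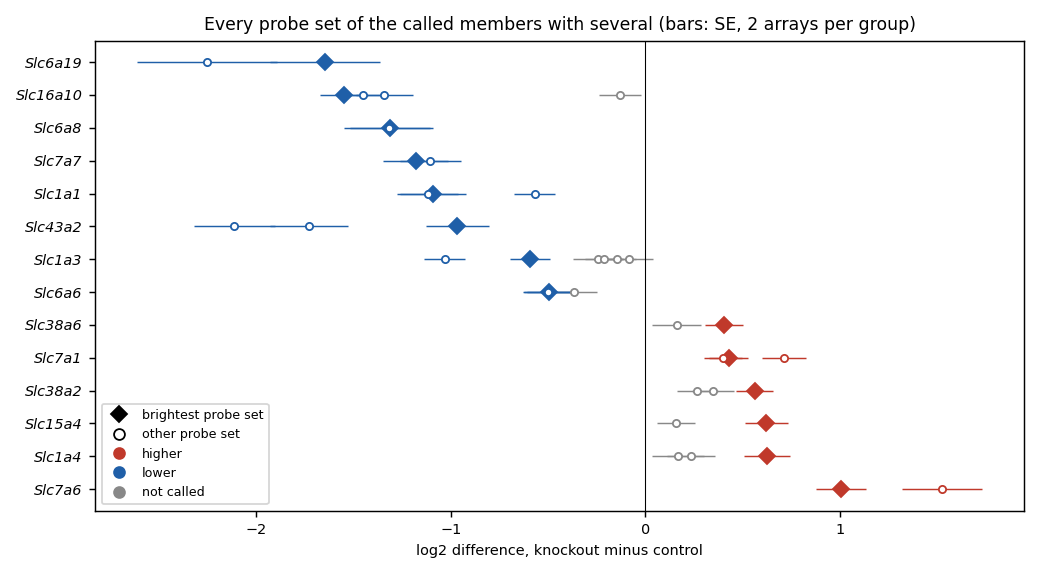
Log2 difference, knockout minus control, of every probe set of the 14 called members with more than 1. Filled diamonds are the brightest probe set, open circles the others, bars the SE (2 arrays per group) and colours the call. Every point of a gene lies on the same side of 0.

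The knockout arrays differed from each other in the degree of the fall. Among the 18 members that fell, knockout replicate 1 was under replicate 2 in 15 and above it in Slc1a1, Slc1a3 and Slc15a5. The median of these 18 was -1.53 in knockout replicate 1 and -0.90 in knockout replicate 2, each against the mean of the controls. For the 7 that rose the median was 0.57 in both, although replicate 1 was above replicate 2 in 6 of them, with 1.11 and 0.68 for Slc7a5 and 1.16 and 0.85 for Slc7a6. Slc15a4 was the exception. On the log2 scale knockout replicate 1 was lower than replicate 2 by 0.77 for Slc6a20a and by 0.85 for Slc15a1. For Slc36a1, Slc7a8 and Slc6a6 it was at most 0.09, so these lay at nearly the same level in both.

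Enterocyte markers moved with these falls. Of 10 measured, 7 fell and none rose, and their summed intensity was 40198 and 57572 in knockout arrays against 76743 and 76005 in control arrays. The lowest single value was 205, far above the bacterial controls. Their median was -1.13 in knockout replicate 1 and -0.55 in knockout replicate 2, so replicate 1 was again lower. Of 5 proliferation markers 3 rose and none fell, with sums of 16348 and 16441 in knockout arrays against 12115 and 12352 in control arrays. Some markers of other cell types were lower too. Of 5 tuft cell markers 3 fell (Dclk1, Pou2f3 and Rgs13) and none rose, with sums of 916 and 990 in knockout arrays against 1346 and 1242 in control arrays. Of 5 goblet cell markers Clca1 and Fcgbp fell and none rose, with sums of 19714 and 23180 in knockout arrays against 27018 and 27924 in control arrays. Of 7 mesenchyme markers Pdgfra (-0.90 ± 0.10) and Des fell and none rose, with sums of 777 and 699 in knockout arrays against 889 and 1092 in control arrays. Of 5 stem cell markers Olfm4 fell (-0.62 ± 0.10) and none rose. None of the enterocyte, tuft, goblet, mesenchyme and stem cell lists had a marker higher at an unadjusted p under 0.05 by limma. In the other lists, Mmp7 of 3 Paneth cell markers (0.42 ± 0.10) and Cck of 5 enteroendocrine markers (0.41 ± 0.10) rose, and none of either list fell. No marker of endothelium or erythrocytes was called. The part of any of these lists in the members' differences was not tested. Without knockout replicate 1, 16 members were called lower and 5 higher. Without knockout replicate 2 these counts were 18 and 7.

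**Figure D4:**
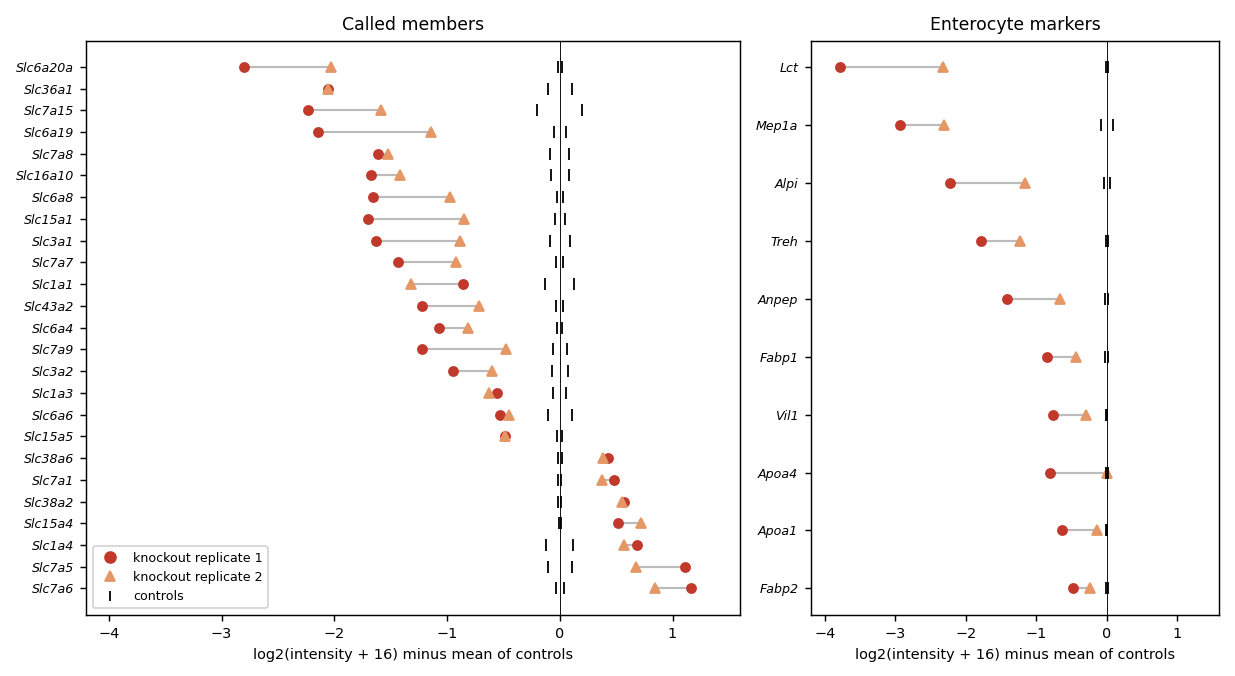
Level of each knockout array on log2(intensity + 16), minus the mean of the controls, for the 25 called members (left) and 10 enterocyte markers (right). Circles are knockout replicate 1, triangles knockout replicate 2, and ticks the 2 controls. Grey lines join the knockout arrays, and in most falling genes the circle lies further left.

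Other genes of amino acid handling were counted from lists of partners, sensors and response genes. Of 9 measured genes that assist or energise the brush border carriers, 6 fell (66.7%, against 10.9% of all genes) and none rose, also by limma at an unadjusted p under 0.05. Slc9a3, the sodium and proton exchanger that keeps up the proton gradient for Slc15a1 and Slc36a1, had 517 and 511 in knockout arrays against 1391 and 1479 in control arrays (-1.45 ± 0.10, adjusted p = 0.000370). Pdzk1, a scaffold of brush border proteins, had 314 and 530 in knockout arrays against 1864 and 1691 in control arrays (-2.08 ± 0.22), and the scaffold Slc9a3r1 also fell (-0.74 ± 0.15). Anpep, an aminopeptidase that assembles with Slc6a19 and is also in the enterocyte list, had 3322 and 5606 in knockout arrays against 9047 and 8767 in control arrays (-1.04 ± 0.22, adjusted p = 0.0150). Without control replicate 1 or 2 only 2 genes of this list were called lower, and Anpep and Slc9a3r1 were not among them. All 3 sugar carriers of the absorptive cell fell as well, with log2 differences of -2.32 ± 0.24 for the glucose carrier Slc2a2, -1.38 ± 0.20 for the fructose carrier Slc2a5 and -0.60 ± 0.14 for the sodium-coupled glucose carrier Slc5a1. Slc5a1 lost its call without knockout replicate 1 (0.0631), control replicate 1 (0.0932) or control replicate 2 (0.0845).

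Of 20 measured genes of the Atf4 amino acid response, 8 rose and Vldlr, a lipoprotein receptor, fell (-0.42 ± 0.10, adjusted p = 0.0255). These shares were 40.0% higher and 5.0% lower, against 13.4% and 10.9% of all genes. Psat1 of serine synthesis had 2217 and 2021 in knockout arrays against 575 and 454 in control arrays (2.02 ± 0.13, adjusted p = 0.000370). Asns, asparagine synthetase, had 2400.2 and 2239 in knockout arrays against 826 and 870 in control arrays (1.43 ± 0.10, adjusted p = 0.000427). Shmt2, which makes glycine in mitochondria, rose by 1.28 ± 0.11. Phgdh, the first enzyme of serine synthesis, rose by 1.65 ± 0.19, but choosing its probe set by the mean on the log2 scale gave -0.045 (adjusted p = 0.787). Atf4 itself had 2963 and 2973 in knockout arrays against 3021 and 3040 in control arrays (-0.03 ± 0.09), and Ddit3 was not called (-0.08 ± 0.13). The list thus held clear rises beside members with little measured difference.

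Of 29 measured genes of amino acid sensing, in and upstream of the growth kinase mTORC1, 8 rose and 2 fell, with a median of 0.10. These shares were 27.6% higher and 6.9% lower, against 13.4% and 10.9% of all genes. Sesn2, a leucine sensor and stress response gene, had 691 and 718 in knockout arrays against 234 and 318 in control arrays (1.32 ± 0.15, adjusted p = 0.00166). Its relative Sesn1 (-1.12 ± 0.25) and Castor2, of the arginine sensor family (-0.95 ± 0.14), fell. Depdc5, of the inhibitory GATOR complex, rose by 0.63 ± 0.13, with -0.027 for its dimmest probe set, and the Rag GTPase Rraga by 0.60 ± 0.12. Of this list 1 gene was called higher without knockout replicate 1 or without control replicate 2, and 3 without control replicate 1. Sesn2 was called whichever array was left out (adjusted p 0.00323 to 0.00944), while Depdc5 and Rraga each lost the call without knockout replicate 1 (0.0532 and 0.0600) and without control replicate 2 (0.0711 and 0.0818). The calls lower were 1 without control replicate 1 or 2 and 4 without knockout replicate 2.

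**Figure D5:**
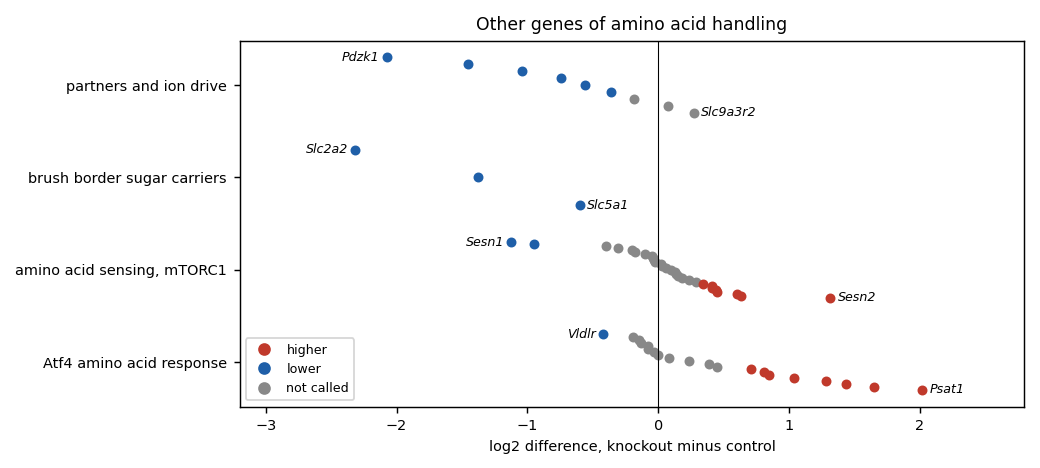
Log2 difference, knockout minus control, of each gene in 4 lists that hold no member. From top to bottom these are partners, sugar carriers, amino acid sensing and the Atf4 response (9, 3, 29 and 20 genes). Each point is 1 gene, coloured by its call, with the lowest and highest gene of each list named. The top 2 lists hold only falls among called genes.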

How the data were processed

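Affymetrix arrays of 2 knockout and 2 control samples were used, grouped by their titles. The values deposited by the authors are intensity on a linear scale for each probe set. Their summary and normalization are not given in the sources used here. Of 45101 probe sets, 34945 had 1 gene in GEO's platform annotation, giving 18193 genes, with symbols updated through RefSeq. Each gene took its brightest probe set by mean intensity over the 4 arrays. Differences on log2(intensity + 16) were tested with limma 3.58.1 in R 4.3.3 (lmFit, eBayes, no block, all genes, Benjamini-Hochberg). The moderated fit had 7.02 degrees of freedom. Fold changes on this scale understate those of dim genes. The number of arrays limits the precision.

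On simulated data with 18193 genes, knockout against control, the fit recovered 88.8% of the 2-fold changes and 21.1% of the 1.5-fold changes. Of the simulated calls 5.20% were false. The simulation changed a far smaller share of genes than the 24.4% called in the data, so these rates need not hold for this comparison.

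The members, role lists and other gene lists were chosen with earlier results of these data known. Named are all called members, all brush border and basolateral genes, members averaging over 200 in either group, members with a dimmer probe set called otherwise, and up to 4 called genes (all where at most 5) of each other list. Atf4, Ddit3, Sesn1 and further members were named after their values were seen. Alternatives covered the pseudocount, scaling, prior, a filter at 64, the probe set, the replicate block, moderation and leaving out each array. No column of the value table was left out.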

Additional observations from a re-analysis of the deposited data

How the results depend on the processing

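Of the 25 called members, all that were measured kept their direction under the 15 alternatives run (Slc15a5 has no value with the filter at 64). For the prior, the filter, the block and moderation this was fixed, since the differences stay the same. Other pseudocounts or leaving out 1 array could not turn it either, since the groups of these members do not overlap. Of the alternatives, 1 (the probe set chosen by its mean of log2 values) was chosen after seeing the data. Under that one, median scaling, quantile normalization and the replicate block all 25 kept their call. Quantile normalization called 19 members lower, against 18 as reported. Without moderation 0 members were called higher and 0 lower, as were 0 genes of each of the other lists, 2 of all genes higher and 0 lower (limma's unadjusted p was under 0.05 for 6450 genes in the reported fit). With each gene's dimmest probe set 4 members were called higher, 1 sensing gene lower and 0 Atf4 response genes lower, the last also with the mean of all probe sets (0), Depdc5 had -0.027, and 16 members were called lower. Phgdh had -0.045 with the probe set chosen by its mean of log2 values. The cause was not tested.

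Leaving out 1 array gave 4 to 7 members higher and 14 to 18 lower, 1139 to 2293 of all genes higher and 1032 to 2046 lower, 2 to 5 partner genes lower, 2 to 3 sugar carriers lower, 1 to 6 sensing genes higher and 1 to 4 lower, and 8 to 9 Atf4 response genes higher and 0 to 1 lower. A lone array was assumed to vary like the other group. The replicate numbers are not stated to pair the samples, and deviations of arrays with the same number correlated at 0.0986 across genes. With the replicate block 18 members were called lower and 7 higher, with 2219 and 2661 of all genes, and no call of a member changed. Probe sets near the bacterial controls, such as that of Slc15a5, limit what can be read of dim members.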

Other observations

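By family, the Slc3a genes fell in 2 of 2, the Slc6a genes in 5 of 21 and the Slc7a genes in 4 of 16, where 3 rose. The Slc6a share was 23.8% lower and the Slc7a shares 25.0% lower and 18.8% higher, against 10.9% lower and 13.4% higher over all genes. Of 9 Slc38a genes, the sodium-coupled carriers of glutamine and related amino acids, 2 rose and none fell, with a median log2 difference of 0.10, and limma at an unadjusted p under 0.05 also placed none lower. In the Slc36a family Slc36a1 fell, while its relatives Slc36a2 (58.7 and 61.7 in knockout arrays against 57.4 and 60.7 in control arrays), Slc36a3 (109 and 118 against 103 and 116) and Slc36a4 (117 and 114 against 133 and 120) were not called. Slc15a2, the peptide carrier known from kidney, had 108 and 237 in knockout arrays against 107 and 184 in control arrays, with replicate 2 the higher in both groups.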
